A study of Mus musculus with 15 samples.

Results

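The 4373 regions described here are places inside the bodies of protein-coding genes where HSF1 was detected by chromatin immunoprecipitation and sequencing (ChIP-seq) in mouse brown adipose tissue. They were chosen from a pair of wild-type (WT) peak lists made after 40 min of cold stress, called here pair B and labelled rep1.1 and rep2.1. Overlapping peaks of these 2 lists were merged, and 10367 merged regions held a peak of both libraries. A region counted as inside a gene body when its midpoint lay within a protein-coding gene of GRCm38 (mm10) and more than 1000 bp from every gene end, which took in 42.2% of the regions. Of the others, 2707 lay within 1000 bp of a gene end and 3287 between genes.

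The study made 10 HSF1 ChIP libraries from brown adipose tissue, all with antibody 4356 of Cell Signaling, in 5 groups of 2. The groups were WT at RT (room temperature), WT after 40 min of cold stress (pair A, labelled rep1 and rep2), WT after 4 h of cold stress, again WT after 40 min of cold stress (pair B), and TXNIP knockout (KO) after 40 min of cold stress. Fixation used DSG (2 mM, 25 min) and then formaldehyde (0.8%, 12 min), and 5 input libraries were not analysed here. The labels give no age, sex or strain, no type or tissue range of the TXNIP deletion, and no word on whether the libraries of a group came from separate animals, so p-values here reflect differences among libraries that may be technical. They also do not say how the 2 WT pairs at 40 min relate to each other. Each library has a list of peaks with the authors' fold enrichment over local background, and a region was called in a library when it overlapped at least 1 of its peaks. The lists hold 919 and 1269 peaks at RT, 2287 and 1670 in pair A, 123 and 351 at 4 h, 12644 and 14583 in pair B and 10399 and 10633 in the knockout. Read depth is unknown, so list length and depth cannot be told apart here. The lists measure binding, so they check neither the deletion of Txnip nor the markers of brown fat.

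HSF1 is the main transcription factor of the heat shock response. In unstressed cells much of it is held inactive by chaperones, and under protein-folding stress it forms trimers that bind heat shock elements, which are repeats of the unit GAA in alternating orientation. Its best known targets are chaperone genes bound close to their starts, while sites inside introns and far from starts have also been mapped in many cell types. In brown adipose tissue HSF1 has been connected to the thermogenic programme, which burns lipid to make heat in the cold.

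Heat shock elements could be read in regions whose summit fell inside a RefSeq window of GRCm38 running from 250 bases before to 50 after an annotated start, since such a window can lie deep inside a gene when the gene has a downstream alternative start. The element searched had 3 units in 13 bases, spelled GAANNTTCNNGAA or TTCNNGAANNTTC, which covers both strands. The table holds 32851 windows, and 198 of them (0.603%) had at least 1 such element. Of 220 windows holding the summit of a gene body region, 7 (3.18%) had the element, against 36 of 1148 windows (3.14%) at summits near gene ends and 8 of 67 (11.9%) at summits between genes. Among gene body summits the element was in 4 of 21 windows where the region's lower fold, the smaller of its folds in the 2 lists of pair B, was 20 or more (19.0%), and in 3 of 199 below that (1.51%). These are counts of windows, and more than 1 window can hold the same summit, as for regions of Flywch1 and Oma1 among the 21. A shorter match of 2 units, GAANNTTC or TTCNNGAA, which overlaps the longer one, was in 57 of the 220 windows and in 15.1% of all windows. A match describes letters in a window and does not show which site was bound.

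In 6 genes a gene body region had a lower fold of 50 or more and its summit in a window of one of the gene's own internal starts. They are shown because they have the highest lower folds among gene body regions with a summit in such a window. Stronger regions over an internal start of their own gene, such as those of Hspa4l (280) and Sumo3 (145), did not have their summit in one. Each stretch is read 5′ to 3′ on the strand of the gene from the RefSeq window, with the match nearest the summit in capitals and up to 40 bases on each side, stopping at the start. Ccnd3 encodes a D-type cyclin (chr17:47593242-47593334, plus strand), Slco2b1 an organic anion transporter (chr7:99706984-99707076, minus strand) and Slc29a1 a nucleoside transporter (chr17:45592988-45593080, minus strand). These 3 hold an element of 3 units.
Ccnd3: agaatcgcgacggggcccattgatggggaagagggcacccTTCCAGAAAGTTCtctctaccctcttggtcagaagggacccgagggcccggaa
Slco2b1: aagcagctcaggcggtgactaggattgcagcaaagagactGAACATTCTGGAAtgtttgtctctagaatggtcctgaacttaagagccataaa
Slc29a1: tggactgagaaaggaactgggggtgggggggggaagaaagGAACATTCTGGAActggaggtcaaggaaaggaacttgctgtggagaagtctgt
The other 3 hold only a match of 2 units. Tspan9 encodes a tetraspanin (chr6:128124468-128124555, minus strand), Csk the kinase that restrains Src-family kinases (chr9:57645728-57645815, minus strand) and Dnajb4 an HSP40 co-chaperone (chr3:152193846-152193899, minus strand).
Tspan9: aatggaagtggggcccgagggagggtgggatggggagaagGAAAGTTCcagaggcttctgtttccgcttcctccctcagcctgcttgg
Csk: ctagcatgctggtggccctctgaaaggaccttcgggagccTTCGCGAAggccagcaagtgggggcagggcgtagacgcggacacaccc
Dnajb4: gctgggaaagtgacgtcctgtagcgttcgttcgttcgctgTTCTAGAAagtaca

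In all 6 the match lay close to the deposited summit. The centre of the match was 6 bp from the summit in Ccnd3, 30 bp in Slco2b1 and 23 bp in Slc29a1. It was 1 bp from the summit in Tspan9, 27 bp in Csk and 28 bp in Dnajb4. Slco2b1 and Slc29a1 carried the same 13 letters, GAACATTCTGGAA, 194 and 103 bases before their internal starts. The lower fold of pair B was 113 in Ccnd3, 74.4 in Tspan9, 65.5 in Csk, 58.9 in Dnajb4, 56.9 in Slco2b1 and 53.0 in Slc29a1.

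The folds of these regions differed widely between the lists. The Ccnd3 region had folds of 12.1 and 17.7 at RT, 31.4 and 22.5 in pair A, 5.71 in 1 of 2 libraries at 4 h, 116 and 113 in pair B and 94.4 and 90.1 in the knockout. The Dnajb4 region had 9.77 and 7.61 at RT, 17.9 and 15.0 in pair A, no call at 4 h, 58.9 and 67.7 in pair B and 64.5 and 62.4 in the knockout. The Slc29a1 region had 6.82 and 10.6 at RT, 9.81 and 13.1 in pair A, no call at 4 h, 77.8 and 53.0 in pair B and 58.9 and 55.5 in the knockout. In Ccnd3 and Dnajb4 both libraries of pair A lay above both at RT, and in Slc29a1 the 2 groups overlapped. The median over the 286 gene body regions called in all 4 of these libraries was also higher in pair A (13.8 and 12.0) than at RT (7.26 and 8.20). A fold depends on the library and its input, so folds of different lists are set side by side as descriptions and were not tested.

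Gene bodies held 42.2% of the regions on 36.7% of the sequence between the first and the last gene end of each chromosome, a density of 4.42 regions per Mb. Sequence within 1000 bp of a gene end held 34.2 regions per Mb on 2.94% of that length, and sequence between genes held 2.03 per Mb. A gene body region had a median width of 782 bp (327 to 6996 bp) and a median lower fold of 5.97 in pair B. The median lower fold was 4.70 at gene ends and 6.35 between genes, all in the 2 lists that chose the regions. A lower fold of 50 or more was reached by 147 gene body regions (3.36%), 132 at gene ends (4.88%) and 141 between genes (4.29%).

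Membership turned on the distance limit for a few regions. Just inside it were regions of Prss21 and Ercc5 at 1001 bp and of Tent4b at 1002 bp from a gene end, with folds in pair B of 19.5 and 22.0, 6.77 and 7.03, and 18.3 and 21.8. Just outside it were regions of Ddi2 at 996 bp, Tnip1 at 992 bp and Ube2e3 at 987 bp, with folds of 20.5 and 19.7, 4.38 and 4.97, and 3.58 and 4.12.

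The share of gene body regions called was close to the share of all 10367 regions in each list. Between groups and within the WT pairs it was higher in the longer list, while the knockout lists, of nearly equal length, called nearly equal shares. At RT 343 and 495 gene body regions were called (7.84% and 11.3%; all regions, 8.58% and 11.9%). In pair A 955 and 683 were called (21.8% and 15.6%; all regions, 21.4% and 15.6%), and at 4 h 30 and 135 (0.686% and 3.09%; all regions, 1.05% and 3.29%). The knockout lists called 3497 and 3455 of them (80.0% and 79.0%; all regions, 77.8% and 78.4%). The 2 pair B lists hold all 4373 by the rule (100% of all regions too).

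The groups did not overlap in this share, but 2 libraries against 2 allow no exact permutation p under 0.333. The mean share was 9.58% ± 2.46 (SD, n = 2) at RT, 18.7% ± 4.40 (SD, n = 2) in pair A and 1.89% ± 1.70 (SD, n = 2) at 4 h. It was 79.5% ± 0.679 (SD, n = 2) in the knockout. Pair A was 9.15 points above RT, 4 h was 7.69 points below RT and 16.8 points below pair A, and the knockout was 60.8 points above pair A. Each of these 4 differences had p = 0.333 in a two-sided exact permutation test. When every list was limited to the 123 peaks of the shortest one, the shares lay between 0.617% and 0.686% in all 8 libraries.

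**Figure D1:**
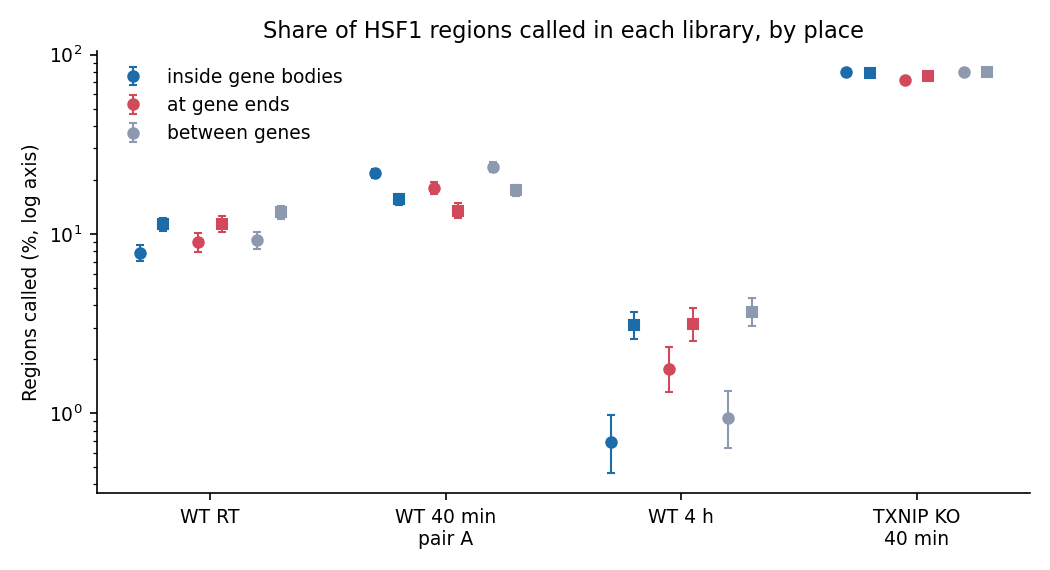
Percent of HSF1 regions called in each library outside pair B (log axis), for regions inside gene bodies (blue), at gene ends (red) and between genes (grey). Circles are replicate 1, squares replicate 2, and bars are exact binomial 95% intervals that cover counting over regions only. The gene body shares run from 0.686% at 4 h to 80.0% in the knockout and lie close to those of the other regions.

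Gene body regions were compared with the other regions library by library, over the 8 lists that did not choose them. Against gene ends, their share was higher in 4 of 8 libraries, by a mean of 1.83 points (−1.13 to 7.75), and a two-sided exact sign-flip permutation test gave p = 0.156 (adjusted p = 0.156 over 2 comparisons, Benjamini-Hochberg). The libraries that were higher were all 4 made after 40 min of cold, from both genotypes. These 4 also had the longest of the 8 lists, so time in the cold and list length cannot be told apart here. Against regions between genes, the gene body share was lower in 7 of 8 libraries, with a mean difference of −0.998 points and an exact permutation p = 0.0234 (adjusted p = 0.0469). With the 123 strongest peaks of each list the difference shrank to −0.211 points, with an adjusted p of 0.00781 in the exact permutation test. Leaving out any 1 library other than the first knockout library raised the adjusted p above 0.05, to between 0.0625 and 0.0938. With lists of that equal length the difference from gene ends reversed to −1.71 points, and the exact permutation test gave an adjusted p of 0.00781. Both are the smallest p that 8 libraries allow, so the gene body share was then the lower one in every library in both comparisons. The 8 libraries come in groups of 2 and were all scored on the same regions, so their differences are not independent. These p-values leave out the spread over regions and do not show that the classes of regions differ in general.

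The make-up of the lists at equal length was also compared. Among the 123 strongest peaks, gene bodies held 21.1% and 21.1% at RT, 24.4% and 22.0% in pair A, 22.0% and 20.3% in pair B and 22.0% and 22.8% in the knockout. At 4 h they held 30.9% and 25.2%. Gene ends held 58.5% and 55.3% at RT, 39.8% and 43.9% at 4 h, and 52.8% to 56.1% in the other 6 lists. The 4 h lists thus had the highest gene body share and the lowest gene end share of all 10 at this length, with 123 peaks a list. These 123 peaks are the whole list of 4 h replicate 1 but only the strongest part of the other lists. With whole lists, 4 h replicate 1 had the lowest gene body share, 30.9% against 39.1% to 44.0% in the others. Its gene end share was then the highest, 39.8% against 20.9% to 26.8%.

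Calls outside pair B went with the strength of a region there. Split by the lower fold of pair B, the weakest 1094 gene body regions had no call in either RT list and were called at 54.3% and 49.0% in the knockout. The strongest 1093, with folds of 11.1 to 321, were called at 30.4% and 43.3% at RT, 75.5% and 58.2% in pair A, 2.74% and 12.4% at 4 h and 99.4% and 99.9% in the knockout. The other regions with folds above 11.1 gave a similar pattern, so it is not particular to gene bodies. Those between genes were called at 32.8% and 45.1% at RT, and those at gene ends at 46.3% and 56.8% at RT and 8.99% and 16.1% at 4 h. The largest number of gene body regions, 2047 (46.8%, beside 45.3% of all regions), was called in exactly 4 lists, 514 only in the 2 lists that chose them (11.8%, beside 12.8% of all regions), and 23 in all 10 (0.526%, beside 0.916% of all regions, or 46 at gene ends and 26 between genes).

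The median fold of the gene body regions called was between 6.32 and 7.79 in every list. It was 6.74 and 6.44 at RT, 7.01 and 7.79 in pair A, 6.32 and 7.50 at 4 h, 6.57 and 6.86 in pair B and 7.41 and 7.11 in the knockout. Each list's median covers a different set of regions, so these medians do not compare the same regions. Over the 286 regions called in all 4 libraries of RT and pair A, the medians were 7.26 and 8.20 at RT and 13.8 and 12.0 in pair A. Over the 23 regions common to RT and 4 h, they were 10.3 and 14.7 at RT and 6.66 and 10.7 at 4 h. The lists also differed in their highest folds. The highest was 58.2 and 60.3 at RT, 108 and 87.4 in pair A, 22.3 and 35.3 at 4 h, 339 and 344 in pair B and 275 and 295 in the knockout. Both libraries of a group called 305 gene body regions at RT (all regions, 7.64%), 607 in pair A (14.1%), 28 at 4 h (1%) and 3095 in the knockout (69.1%). Across such regions the correlation of log2 folds between the 2 libraries was 0.853 at RT, 0.904 in pair A, 0.822 at 4 h, 0.953 in pair B and 0.936 in the knockout, and these regions share libraries and are not independent.

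**Figure D2:**
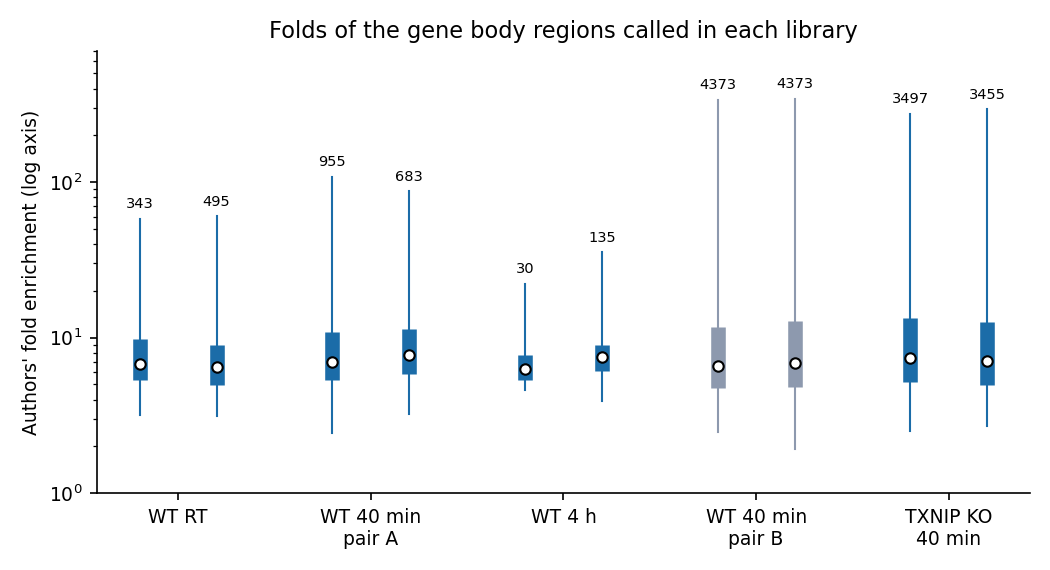
Authors' fold enrichment (log axis) of the gene body regions called in each of the 10 libraries; replicate 1 stands left of replicate 2. Thin lines are the range, thick bars the middle 50% of regions, open circles the median and numbers the regions called. Medians stay between 6.32 and 7.79 while the upper ends run from 22.3 at 4 h to 344 in pair B, whose 2 lists (grey) chose the regions. The regions called differ between libraries, so the medians do not compare the same regions.

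The 10 strongest gene body regions were those of Stard13, Per2, Hspa4l, Coro2b, Rph3al, Ptov1, Zfp366, Sumo3, Ssh1 and Cilk1, and 6 of them were called in all 10 lists. Stard13 encodes a GTPase-activating protein, and its region (chr5:151367840-151369650) lay 59.5 kb from the gene start. The region holds an annotated start of another gene and none of Stard13. It had folds of 58.2 and 60.1 at RT, 77.6 and 69.9 in pair A, 11.3 and 20.4 at 4 h, 339 and 321 in pair B and 262 and 260 in the knockout. Both libraries at 4 h lay below all others, and both knockout libraries below both of pair B.

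Per2 encodes a repressor of the circadian clock. Its region (chr1:91435291-91438246), 20.8 kb from the nearest gene end, had folds of 43.8 and 45.6 at RT, 88.8 and 74.7 in pair A, 22.3 and 35.3 at 4 h, 305 and 312 in pair B and 275 and 234 in the knockout. It had the highest fold of any gene body region in both 4 h lists. Hspa4l encodes a chaperone of the HSP110 family, a nucleotide exchange factor of HSP70. The midpoint of its region (chr3:40744629-40746855) lay only 1242 bp from the gene start at 40744500. The region holds a further annotated start of Hspa4l. It counts as inside the body by its midpoint, although its summit at 40745328 lay within 1000 bp of the gene start. It had folds of 57.2 and 60.3 at RT, 108 and 87.4 in pair A, 11.5 and 24.3 at 4 h, 280 and 344 in pair B and 273 and 295 in the knockout, so the knockout and pair B overlapped.

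The other regions of this set were mostly weaker at 4 h or not called there. Coro2b, a coronin that binds actin, had folds of 34.6 and 35.1 at RT, 53.2 and 46.5 in pair A, 9.57 and 19.6 at 4 h, 212 and 213 in pair B and 156 and 155 in the knockout. Rph3al, a Rab effector of exocytosis, had 30.4 and 24.9 at RT, 43.5 and 47.0 in pair A, 6.43 and 13.2 at 4 h, 184 and 199 in pair B and 149 and 152 in the knockout. Both had every library of pair A above RT and both 4 h libraries below it. The median over regions called in both groups was also higher in pair A than at RT. Ssh1, a phosphatase that activates the actin-severing protein cofilin, had 28.1 and 31.2 at RT, 52.9 and 32.6 in pair A, no call at 4 h, 142 and 160 in pair B and 138 and 111 in the knockout. Cilk1, a kinase of cilia, was the weakest of the 10 at RT (18.8 and 16.2) but not at 4 h (11.9 and 22.5). Sumo3, a ubiquitin-like modifier, had its region over an internal start of the gene and was called at 4 h in 1 library only, with a fold of 5.96.

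**Figure D3:**
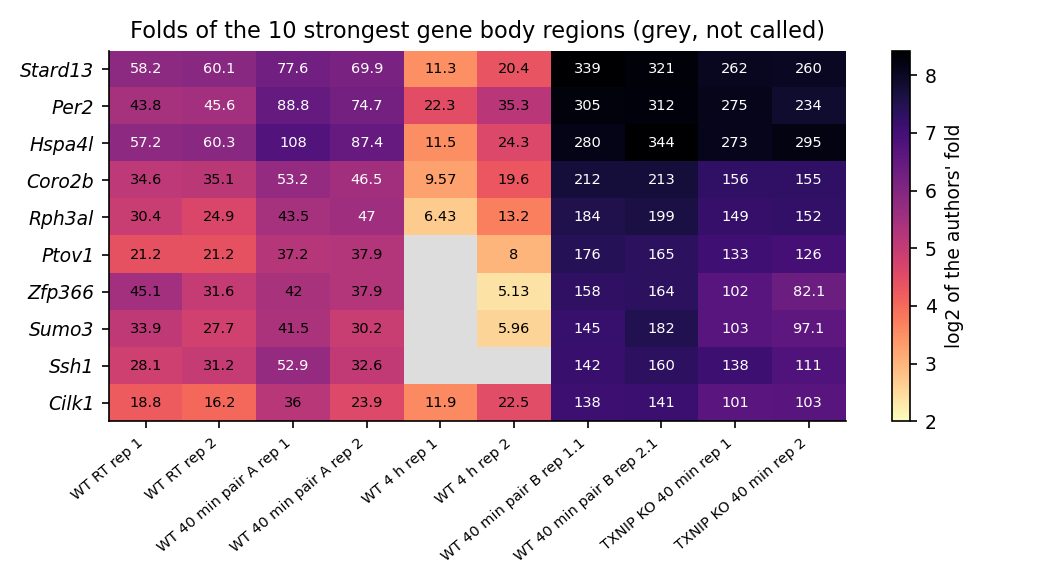
Folds of the 10 strongest gene body regions (rows, ordered by the lower fold of pair B) in the 10 libraries (columns), coloured by the log2 of the authors' fold; grey means not called. The 4 h columns are the palest, with 4 empty cells for Ptov1, Zfp366, Sumo3 and Ssh1 in replicate 1 and 1 for Ssh1 in replicate 2, and pair B and the knockout are the darkest.

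Further regions called in all 10 lists included those of Dusp16, Ebf1, Insr and Mgll. Dusp16 encodes a phosphatase of JNK and p38 kinases, and its region (chr6:134802281-134803747) had folds of 4.05 and 5.86 at RT, 24.6 and 18.1 in pair A, 6.89 and 14.6 at 4 h, 102 and 101 in pair B and 80.1 and 94.4 in the knockout. Unlike Stard13, Per2 and Hspa4l, it had both 4 h folds above both RT folds. Ebf1, a transcription factor of adipocytes and B cells, had 8.01 and 14.7 at RT, 32.9 and 26.4 in pair A, 6.20 and 14.6 at 4 h, 128 and 136 in pair B and 104 and 106 in the knockout. Insr, the insulin receptor gene, had 6.20 and 7.03 at RT, 14.5 and 15.6 in pair A, 5.07 and 9.85 at 4 h, 54.2 and 58.4 in pair B and 56.3 and 60.2 in the knockout. Mgll, which encodes monoacylglycerol lipase of triglyceride breakdown, had 8.82 and 7.61 at RT, 15.2 and 15.9 in pair A and 6.66 and 6.78 at 4 h. In all 4 genes both libraries of pair A lay above both at RT, as did the median over the regions called in both groups.

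Regions gained between 2 groups were called in both libraries of the later or treated group and in neither of the other, and lost regions the reverse. From RT to pair A 181 gene body regions were gained and 1 was lost (all regions, 3.86% gained and 0.0482% lost; the 181 are 4.14% of the gene body regions). The strongest gains were in Rassf4, Tectb, Apbb2, Mylk and Nisch, none of which was called at RT. Rassf4, a Ras-association protein, had 16.7 and 17.1 in pair A. Mylk, the myosin light chain kinase, had 12.6 and 13.6, and Nisch, an integrin-binding protein, 12.3 and 12.8. The 1 lost region was in Mgat5b, a glycosyltransferase, with 4.29 and 5.27 at RT. Its folds in pair B, which holds every region by the rule, were 20.3 and 16.5. With the 919 strongest peaks of each list, the counts were 48 gained and 22 lost (all regions, 0.916% and 0.54%). With whole lists, 308 were gained without RT replicate 2 and 466 without pair A replicate 2. The losses were 27 and 10 without RT replicate 1 or 2, and 17 and 3 without pair A replicate 1 or 2.

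From RT to 4 h 2 gene body regions were gained and 204 were lost (all regions, 0.0289% and 4.99%). The gains were in Nisch, with 6.89 and 10.4 at 4 h, and in Lamc1, a laminin chain, with 5.05 and 8.93. The strongest losses were in Ssh1, Sparc, Itpkb, C2cd2 and Fyn. Sparc, a collagen-binding matrix protein, had 23.6 and 21.1 at RT and Fyn, a Src-family kinase, 17.9 and 15.8. In pair A Sparc had 37.2 and 29.5 and Fyn 28.0 and 22.0. With the 123 strongest peaks of each list, the counts were 10 gained and 9 lost (all regions, 0.203% and 0.357%). From pair A to 4 h no gene body region was gained and 475 were lost (all regions, 0.00965% and 10.9%), among them regions of Amotl2 and Septin9, and with the 123 strongest peaks 10 were gained and 16 lost (all regions, 0.193% and 0.395%). With whole lists, the losses from RT to 4 h were 377 without RT replicate 1, the gains were 5 without RT replicate 2 and 19 without 4 h replicate 1, and the losses from pair A to 4 h were 818 without pair A replicate 2. The comparisons of RT with 40 min and with 4 h share the RT libraries.

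Between genotypes at 40 min, the counts differed with the WT pair used. Against pair A, 2073 gene body regions were gained in the knockout and none was lost (all regions, 46.3% and 0%). The knockout lists are longer than those of pair A, and with 1670 peaks a list the counts were 45 gained and 14 lost (all regions, 0.965% and 0.54%). With whole lists, 2 were lost without pair A replicate 2 and 1 without knockout replicate 2. The strongest gains were in Gm12248, Tgfbr2, Zdhhc14, Akna and Endod1, and pair B holds them all by the rule. Tgfbr2, a receptor of TGF-beta, had 11.5 and 17.7 in pair B and 21.6 and 22.9 in the knockout, and Akna, an AT-hook protein, had 19.7 and 20.9 against 20.7 and 20.1.

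Against the whole lists of pair B only losses can occur, because they chose the regions. Of the gene body regions, 516 (11.8%) were called in neither knockout library (all regions, 12.9%). The strongest were in Mgmt, A830018L16Rik, Rere, Lrmda and Arhgap27. Mgmt, a DNA repair protein, had folds of 11.9 and 13.8 in pair B, and Rere, a nuclear receptor corepressor, had 9.95 and 10.3. None of the 5 was called in any of the other 8 lists. A loss has no knockout call by definition, and 514 of the 516 lost regions had no call outside pair B. With the 10399 strongest peaks of each list, 268 gene body regions were lost and 33 were gained (all regions, 5.78% and 1.17%). With whole lists, 918 were lost without knockout replicate 1 and 876 without knockout replicate 2.

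Among regions called in all 4 libraries of a comparison, log2 folds were centred on each library's median over the same regions, so that a value says how far a region stood above or below the typical one. The 5 regions that moved most in each direction were chosen after their values were seen and are given without a test. Over 286 such regions of RT and pair A, Dusp16 went from −0.84 and −0.49 at RT to 0.84 and 0.60 at 40 min. Gnb1, a beta subunit of G proteins, went from 0.03 and −0.35 to 0.84 and 0.72. The opposite was found at Sbno2 (−0.23 and 0 at RT, −1.08 and −1.03 at 40 min), and at Ube2h, a ubiquitin-conjugating enzyme (−0.17 and −0.18, then −1.13 and −0.90). The choice by the gap between groups fixes that these values do not overlap.

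Over the 23 regions common to RT and 4 h, Stard13 and Hspa4l moved toward the typical region. Stard13 stood at 2.50 and 2.03 at RT and at 0.76 and 0.93 at 4 h, and Hspa4l at 2.48 and 2.03 and then at 0.79 and 1.18. Dusp16 went from −1.34 and −1.33 to 0.05 and 0.45, and Mertk, a receptor kinase for the clearance of dying cells, from −0.55 and −1.01 to 0.14 and 0.26. Over 3095 regions of pair B and the knockout, Slc25a25, a mitochondrial ATP-Mg/phosphate carrier, stood at 0.05 and 0.14 in WT and at 1.24 and 1.41 in the knockout. Epb41l2 stood at 0.58 and 0.51 in WT and at −0.91 and −0.96 in the knockout, and Sash1 at 1.71 and 1.87 and then at −0.91 and 0.20. Their folds were 8.84 and 10.2 against 19.6 and 20.5 for Slc25a25, 12.8 and 13.1 against 4.41 and 3.95 for Epb41l2, and 28.1 and 34.0 against 4.40 and 8.86 for Sash1.

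The 4373 regions lay in 2418 of 21887 protein-coding genes (11.0%). A single region was found in 1585 of these genes, 2 or more in 833, 5 or more in 154 and 10 or more in 28. The 154 genes held 1134 regions, or 25.9% of all in gene bodies, and 52 regions lay inside more than 1 gene. Genes with a region had a median length of 63.8 kb against 17.2 kb for all protein-coding genes, and the 28 with 10 or more had 244 kb. A region at their own end, within 1000 bp, was present in 608 of the 2418 genes (25.1%), against 13.9% of all protein-coding genes.

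Number went with length up to a point. The share of genes with a region was 1.82% below 10 kb, 13.4% at 25 to 50 kb, 32.9% at 100 to 200 kb and 40.1% above 400 kb. Regions per 100 kb stayed between 0.436 and 0.553 in the length classes up to 400 kb and were 0.156 in longer genes.

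**Figure D4:**
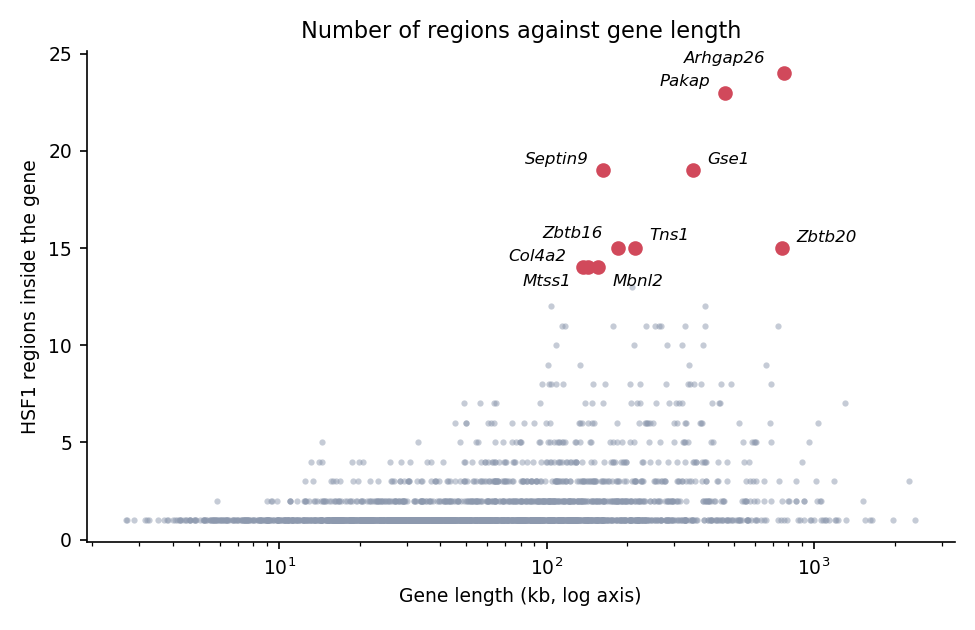
Number of HSF1 regions inside each of the 2418 genes that hold any (vertical) against gene length in kb (log axis). The 10 genes with most regions, in red, hold 14 to 24 each and are between 136 and 775 kb long.

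Arhgap26, which encodes a GTPase-activating protein, held the most regions, 24 in 775 kb (chromosome 18). All 24 were called in pair B by the rule, 18 and 15 in the knockout, 6 and 4 in pair A, 3 and 3 at RT and 0 and 2 at 4 h. Pakap, a fusion locus of paralemmin and a protein kinase A anchor, held 23 in 463 kb (chr4:57434475-57896984), with 20 and 19 called in the knockout, 6 and 3 in pair A, 3 and 5 at RT and 0 and 1 at 4 h. Of all regions, the knockout lists called 77.8% and 78.4% and those of pair A 21.4% and 15.6%. The RT lists called 8.58% and 11.9% of all regions and the 4 h lists 1.05% and 3.29%. The order of the counts over the groups, with the low counts at 4 h, is thus no result about these genes.

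Septin9, a septin of the cytoskeleton, held 19 regions in 163 kb (chr11:117199661-117362325), 11.7 per 100 kb, with a median spacing of 3526 bp. Its strongest region had folds of 22.2 and 23.2 at RT, 32.6 and 32.6 in pair A, 8.93 in 1 library at 4 h, 120 and 135 in pair B and 106 and 121 in the knockout. Gse1, a coiled-coil protein of a chromatin complex, also held 19, in 353 kb (chr8:120228501-120581383), and its strongest region had 7.87 and 9.96 at RT, 16.2 and 16.7 in pair A, 5.71 in 1 library at 4 h, 78.0 and 95.5 in pair B and 68.9 and 63.4 in the knockout. In both, 1 of 2 libraries at 4 h missed the strongest region.

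The zinc-finger repressor genes Zbtb16 and Zbtb20 and the focal adhesion gene Tns1 held 15 each. Zbtb16 had a strongest region with folds of 6.16 and 9.57 at RT, 22.5 and 18.6 in pair A, 6.63 in 1 library at 4 h, 75.5 and 89.0 in pair B and 52.4 and 58.8 in the knockout. In Zbtb20 1 region was called in all 10 lists, with 17.4 and 16.8 at RT and 6.89 and 7.33 at 4 h, and it lay 698 kb from the gene start. The other 14 regions of Zbtb20 had no call outside pair B and the knockout. No list at RT, in pair A or at 4 h called more than 21.4% of all regions, so a region without a call there was the usual case. Tns1 held no strong region: its highest lower fold was 18.2, with no call at RT or 4 h.

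Mbnl2, a splicing regulator, Mtss1, a membrane-bending protein, and Col4a2, a collagen IV chain, held 14 each. Col4a2 had 10.3 regions per 100 kb, and its neighbour Col4a1, the partner chain, held 11, or 9.61 per 100 kb. The next genes were Zmiz1 with 13, Mgll and Ebf1 with 12, and Coro2b, Trak1, Stard13, Rora, Pitpnc1, Sgms1, Etv6, Nav1 and Pde7b with 11 each. Of the 10 leading genes, 7 had no region at their own ends.

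**Figure D5:**
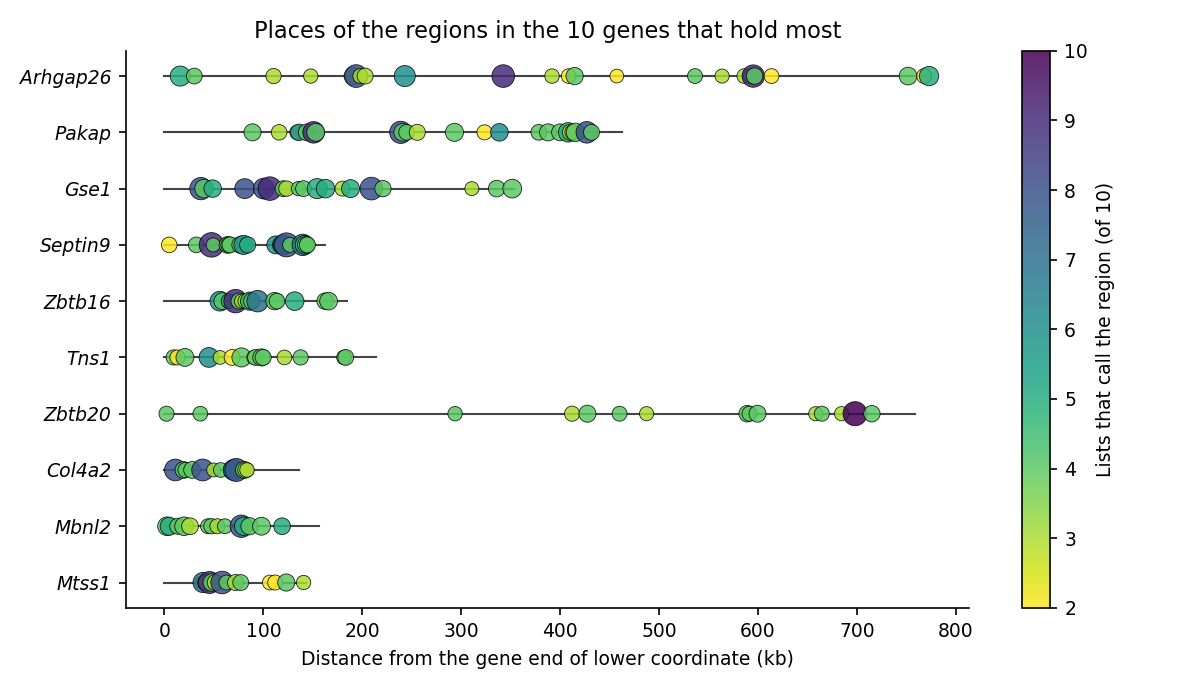
Places of the regions in the 10 genes that hold most, as distance in kb from the gene end of lower coordinate; lines span the gene, colour gives the number of lists that call the region and dot size grows with the log10 of the lower fold of pair B. Regions called in many lists stand among others called in 2 to 5, and Zbtb20 has a single region called in all 10.

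Ranked by density, the leading genes named here were short. Slc29a1 held 5 regions in 14.4 kb (34.7 per 100 kb) and Gata2, a transcription factor that restrains fat cell formation, 4 in 13.1 kb (30.4). Alas1, the rate-limiting enzyme of heme synthesis, held 4 in 14.5 kb (27.6), and Ppp1r3b, a glycogen-targeting subunit of protein phosphatase 1, 3 in 12.4 kb (24.1). The strongest region of Alas1 had folds of 7.91 and 12.8 in pair A, 41.6 and 49.8 in pair B and 36.7 and 42.1 in the knockout, with no call at RT or 4 h. That of Gata2 was weaker, with 4.83 and 4.45 in pair A and 14.3 and 14.4 in pair B. None of the 10 genes with most regions was among the 10 densest.

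Regions were spread along genes with more toward the start. Of 3399 regions with 1 host gene of known strand, 2006 (59.0%) lay nearer the start than the end, and the median distance from the start was 32.4 kb. Over the host genes, density was 77.1 regions per Mb at 1 to 5 kb from the start, 37.4 at 5 to 10 kb, 18.5 at 25 to 50 kb and 6.78 beyond 100 kb. These densities cover only genes chosen for holding a region, so they cannot be set beside the 4.42 per Mb of all gene bodies or the density at gene ends. A short host gene can hold its region only near its start, so part of the fall with distance is built in. The median lower fold moved little, from 5.37 at 1 to 5 kb to 6.19 beyond 100 kb. From any gene end, 64.0% of the 4373 regions lay more than 10 kb away and 23.5% more than 50 kb. The farthest, in the very long gene Csmd1, was 699132 bp away.

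An annotated start, of the host gene or another, lay inside 416 of the regions (9.51%). In 362 it was a start of the host itself, and in 54 only of another gene, and 85 of the 416 held a start of a long noncoding RNA. Starts were known only for genes with a start window, 79.9% of protein-coding genes. A region over a start of any other gene was counted as holding none, so 416 may be too low. The 416 regions had a median lower fold of 4.98 against 6.03 for the other 3957, some of which may hold an unlisted start. At RT they were called at 11.5% in both libraries, against 7.46% and 11.3% of those without a start. In pair A the shares were 21.9% and 16.6% against 21.8% and 15.5%, at 4 h 0.481% and 2.40% against 0.708% and 3.16%, and in the knockout 80.5% and 76.7% against 79.9% and 79.3%. The side with the higher share thus differed between libraries. A lower fold of 50 or more was reached by 18 of the regions with a start and 129 of those without.

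Genes of the heat shock response had their regions mostly at their ends. Of 34 heat shock chaperones and co-chaperones, 5 held one inside the body (14.7%, beside 11.0% of all protein-coding genes), while 27 had a region at an end. The 5 were Hspa4l, Dnajb4, the co-chaperone Bag3 with 3 regions of 4.46 to 8.33, the HSP90 co-chaperone Fkbp4 (6.57) and the small heat shock protein Hspb8 (3.38), all as lower folds of pair B. Apart from Hspa4l and Dnajb4, these were called only in pair B and the knockout. None of 34 genes of the TRiC, mitochondrial and endoplasmic reticulum chaperones held one, while 21 had a region at an end. Among the 5 genes above, Hspa4l counts by the midpoint of its region, whose summit lay within 1000 bp of the gene start.

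Genes of brown fat identity and heat production held regions in 15 of 32 cases (46.9%, 1.52 regions per 100 kb, beside 0.416 over all protein-coding genes). Prdm16, a determinant of brown fat identity, held 10, and its strongest had folds of 6.91 and 8.98 at RT, 14.5 and 11.7 in pair A, no call at 4 h, 52.4 and 41.2 in pair B and 23.0 and 39.3 in the knockout. Ppargc1a, the coactivator of mitochondrial biogenesis known as PGC-1alpha, held 9 in 662 kb. Its strongest (chr5:52061011-52063286) had 5.96 and 7.61 at RT, 15.2 and 21.7 in pair A, 4.30 in 1 library at 4 h, 69.7 and 72.9 in pair B and 56.2 and 65.0 in the knockout. Both genes had pair A above RT. So did the median over the 286 gene body regions called in all 4 of these libraries (7.26 and 8.20 at RT, 13.8 and 12.0 in pair A). The strongest region of Ebf2, a factor that selects brown fat genes, had 4.29 and 5.08 at RT, 9.18 and 8.63 in pair A and 6.07 in 1 library at 4 h, then 46.8 and 39.3 in pair B and 19.7 and 21.5 in the knockout. Esrrg, a nuclear receptor of oxidative metabolism, held 5.

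General adipocyte and lipid genes held regions in 15 of 38 cases (39.5%, 2.91 per 100 kb). Besides Mgll and Ebf1 with 12 each, Klf15, a transcription factor of fasting metabolism, held 4, the strongest with 10.7 and 10.7 at RT, 19.1 and 16.4 in pair A, no call at 4 h, 72.7 and 87.1 in pair B and 67.6 and 68.7 in the knockout. Lipe, the hormone-sensitive lipase gene, held 3 with a highest lower fold of 49.4, and Pparg, the master factor of fat cell formation, held 1 with 2.90.

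Many signalling genes, which tend to be long, held a region. For cAMP and beta-adrenergic signalling, the route by which cold activates brown fat, 24 of 43 genes held a region (55.8%, 0.958 per 100 kb). The phosphodiesterase gene Pde7b held 11, Pde4d 7, the kinase anchor Akap13 6 and the adenylyl cyclase Adcy3 5. The strongest region of Adcy3 had folds of 10.4 and 8.63 in pair A, 45.4 and 44.1 in pair B and 33.9 and 34.2 in the knockout, with no call at RT or 4 h. For insulin, AKT and mTOR signalling it was 13 of 37 (35.1%, 0.737 per 100 kb), led by Insr with 5 and the transcription factor Foxo1 with 3. The strongest Foxo1 region was called at RT in 1 library (6.26) and had 7.01 and 6.40 in pair A and 25.0 and 24.7 in pair B.

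Clock genes held regions in 9 of 23 cases (39.1%, 1.46 per 100 kb). Besides Per2 with 3, the nuclear receptor gene Rora held 11, the strongest with 12.7 and 12.1 at RT, 29.7 and 16.5 in pair A, 5.36 in 1 library at 4 h, 80.8 and 90.6 in pair B and 75.9 and 61.8 in the knockout. Arntl, which encodes the activator BMAL1, held 2 and Cry2, a repressor, 3, with no lower fold over 15.1. Immediate early and stress genes held regions in 9 of 39 cases (23.1%, 3.01 per 100 kb), led by Dusp16 and Klf9 with 3 each. Nuclear receptor coregulators and chromatin genes did so in 14 of 34 (41.2%, 0.782 per 100 kb), led by Zbtb16.

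Respiratory chain and ATP synthase genes held regions in 3 of 34 cases (8.82%) and cytosolic ribosomal protein genes in 1 of 32 (3.13%), and both sets are short genes, with medians of 8.60 and 3.74 kb. Very long neuronal genes, with a median of 1210 kb, held regions in 9 of 30 cases but at 0.0341 per 100 kb. Among markers of other cell types in the tissue, regions were found in 6 of 20 endothelial genes and 2 of 20 skeletal muscle genes. None of 20 leukocyte genes held one. The share over all protein-coding genes was 11.0%, so the muscle count was close to it. The leukocyte genes had a median length of 10.9 kb, and 7.36% of all genes of 10 to 25 kb held a region. With 20 such genes, the lack of a region is no result about leukocytes. The endothelial genes, with a median length of 39.5 kb, held 1.24 regions per 100 kb, which is more than the cAMP, insulin and coregulator lists and less than the thermogenic list (1.52, median length 30.7 kb). The strongest endothelial one, in the VEGF receptor gene Flt1, had 13.8 and 16.6 at RT, 23.9 and 15.9 in pair A, no call at 4 h, 62.1 and 79.6 in pair B and 52.9 and 48.0 in the knockout. The muscle gene Actn2, an alpha-actinin, held a region called in all 10 lists, with a lower fold of 49.1 in pair B. Binding in another cell type of the tissue was not tested.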

How the data were processed

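HSF1 ChIP-seq of mouse brown adipose tissue gave 10 deposited lists of narrow peaks, 1 per library. The tools named are MACS2 2.2.7.1, deepTools 3.4.3, BWA 0.7.17, Trim Galore 0.6.0 and SAMtools, and the build is GRCm38.p6 (mm10), per the submitters' processing notes. The input behind each list, the treatment of duplicate reads and the read depth were not stated. Each deposited list gives per peak the authors' fold enrichment, a ratio to local background. It also gives the authors' −log10 p-value and −log10 q-value (smallest 1.30), an integer score that was not used, and the summit offset in bp as deposited.

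Peaks on chromosomes 1 to 19, X and Y were merged when they overlapped by at least 1 bp. Genes were 21887 protein-coding genes of a RefSeq table of GRCm38.p6, and strand was known for the 79.9% with a start window. A list's value for a region is the highest fold of its overlapping peaks. Binomial intervals are exact 95% intervals and cover counting only. Analyses used Python 3.11.15, pandas 2.3.3, numpy 2.4.6 and scipy 1.17.1, and region classes were tested on simulated data. The genome sequence was not used here, so elements were read in RefSeq windows in place of all summits. The share of regions called was tested over libraries by exact permutation.

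Named genes are the 10 with most regions, the 5 densest per 100 kb with at least 3 regions, hosts of the 10 strongest regions, of up to 10 regions called in all lists, and of 5 gained or lost regions per comparison and direction. They also include up to 4 genes of each of 15 lists, and 3 regions on each side of the distance limit. A few genes this rule takes are not reported here. Other names were chosen after their values were seen. The members, the lists and the rules were chosen with earlier results of these data known. Alternatives were list length, −log10 q of at least 5, overlap, distance, left-out libraries and a replicate block. Order after centring and the ends of noncoding genes were added after seeing the data. An input whose title and treatment label differ was put in no group.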

Additional observations from a re-analysis of the deposited data

Results flagged for a closer look

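The gap in share called between gene body regions and gene end regions had opposite signs in different groups. It was 3.81 and 2.17 points in pair A and 7.75 and 3.28 points in the knockout. At RT it was −1.13 and −0.0584 points, and at 4 h −1.09 and −0.0529 points. The values of replicate 2 at RT and at 4 h were small, so the negative sign there rested on replicate 1. The mean gap was 3.59 points higher in pair A than at RT and 6.11 points higher in the knockout than at RT. It was −3.56 points at 4 h relative to pair A, and 6.08 points higher in the knockout than at 4 h. These differences were not tested, and the lists of the groups differ in length. With the 123 strongest peaks of each list the gap was negative in all 8 libraries, with a mean of −1.71 points, so the opposite signs were not seen at equal length.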

How the results depend on the processing

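The number of gene body regions was between 3386 and 4417 when the overlap, the distance limit, the q-value, the summit or the ends of noncoding genes were used, and 5297 or 6206 with 1 pair B list alone. With −log10 q of at least 5 the shares called were 6.93% in RT replicate 1, 19.0% and 13.7% in pair A and 74.5% and 73.2% in the knockout. With the 919 strongest peaks of each list they were 8.26% in RT replicate 2, 8.42% and 8.48% in pair A and 8.74% and 8.87% in the knockout. With the 123 strongest they were 0.617% in both RT libraries, 0.686% and 0.640% in pair A, 0.686% in 4 h replicate 2 and 0.617% and 0.640% in the knockout. The difference from gene ends then reversed to −1.71 points (main value 1.83). The difference from regions between genes lost its call at a 2000 bp limit (−0.894 points, adjusted p = 0.0938 in the exact permutation test) and without 7 of the 8 libraries (−1.10 to −0.875 points). Without knockout replicate 1 it was −1.20 points and kept its call, and with the 123 strongest peaks it kept its call at −0.211 points.

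Without 1 library each, gains and losses of gene body regions ranged from 194 to 466 and from 3 to 27 (RT to pair A), from 2 to 19 and from 205 to 377 (RT to 4 h), and losses from 477 to 818 (pair A to 4 h). Losses ranged from 0 to 2 from pair A to the knockout and from 516 to 918 from pair B to the knockout (876 and 918 without 1 knockout library). At equal list length the counts were 48 gained and 22 lost, 10 and 9, 10 and 16, 45 and 14, and 268 lost from pair B, in the order of the report. By density 0 of the 10 leading genes remained, and with −log10 q of at least 5 there remained 8. Same-numbered libraries share only a number, and a fit with the number as a block left the differences at 9.15, −7.69, −16.8 and 60.8 points, with an exact sign-flip p = 0.5, the smallest that 2 pairs allow. Causes were not tested.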
